A study of Homo sapiens with 13 samples.

Results

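The HOX cluster genes were taken as the protein-coding genes of GENCODE version 44 whose symbol is HOX followed by A, B, C or D and a number, which gave 39 genes of 20033. They comprised 11 HOXA genes on chromosome 7, 10 HOXB genes on chromosome 17, 9 HOXC genes on chromosome 12 and 9 HOXD genes on chromosome 2. Chromatin of MOLM-13, a human cell line grown from acute myeloid leukemia and given no treatment in the labels, was profiled with antibodies against PTBP1, RUNX1 and H3K27me3 and with IgG as the control, in 13 libraries. CUT&Tag, in which an antibody directs a transposase to insert adapters near the bound protein, had 2 libraries each for PTBP1 and RUNX1 and 1 for IgG. CUT&RUN, in which an antibody directs a nuclease to cut there, had 2 libraries for each of the 4 antibodies. The measurements used were 1 list of called PTBP1 peaks and 1 list of called RUNX1 peaks on the hg38 build. The H3K27me3 and IgG libraries and RNA levels of the HOX genes were not analysed here.

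HOX genes encode homeodomain transcription factors that give cells of the embryo their position along the body axis, and within a cluster the genes are ordered on the chromosome much as they are used along that axis. The clusters are packed with short genes and antisense noncoding RNAs, and in cells that do not use them they are typically covered by Polycomb repression. In blood, HOXA9 with its cofactor MEIS1 sustains immature myeloid cells, and it is held active by KMT2A fusion proteins such as the one that MOLM-13 carries. RUNX1, whose Runt domain contacts DNA, controls the formation of blood cells, and PTBP1 regulates splicing by binding RNA rich in pyrimidines. The comparison below addresses where on the HOX clusters the 2 proteins were detected, and whether HOXA differed from the other 3 clusters.

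Only HOXA and HOXC held called peaks. Across the 4 clusters, each taken from the first to the last HOX gene plus 20 kb either side, there were 7 peaks, 4 for PTBP1 and 3 for RUNX1, at 5 places of which 2 had a peak of both lists. HOXA held 3 PTBP1 and 2 RUNX1 peaks, HOXC held 1 of each, and HOXB and HOXD held 0 of either. The 5 HOX genes within 1 kb of a peak were HOXA3, HOXA5, HOXA9, HOXC4 and HOXC6, and 34 had none. With 1 list per target there was no spread between replicates, so counts were compared without a test, and intervals given for fragments cover counting error only.

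The DNA under the summits, the positions of highest signal, is shown for the peaks next to or within HOXA9, upstream of HOXA11 and in HOXC. The summit window at HOXA5 is not shown. Each line gives the 101 bases centred on a summit, 5′ to 3′ on the plus strand of hg38, with capitals marking a RUNX motif, TGTGGT or TGCGGT on either strand, which reads ACCACA or ACCGCA on the plus strand when it lies on the other one. At the HOXC place the RUNX1 summit lay 5 bases from the PTBP1 summit, so only the PTBP1 window is shown.
PTBP1 summit between HOXA7 and HOXA9, chr7:27161540-27161640: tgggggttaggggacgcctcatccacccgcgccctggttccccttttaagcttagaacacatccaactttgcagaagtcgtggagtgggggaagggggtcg
RUNX1 summit at the same place, chr7:27161133-27161233: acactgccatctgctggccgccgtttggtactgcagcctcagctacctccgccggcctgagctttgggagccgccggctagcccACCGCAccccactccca
RUNX1 summit in HOXA9 exon 1, chr7:27164960-27165060: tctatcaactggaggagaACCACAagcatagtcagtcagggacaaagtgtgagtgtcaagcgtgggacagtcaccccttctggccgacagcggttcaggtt
PTBP1 summit upstream of HOXA11, chr7:27188062-27188162: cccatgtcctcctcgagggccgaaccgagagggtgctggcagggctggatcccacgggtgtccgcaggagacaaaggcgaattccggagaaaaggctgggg
PTBP1 summit in HOXC, chr12:54017906-54018006: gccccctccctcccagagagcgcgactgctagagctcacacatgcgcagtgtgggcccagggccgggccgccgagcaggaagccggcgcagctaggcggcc

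HOXA9, the gene at the centre of KMT2A-rearranged leukemia, was the HOXA gene with peaks of both lists within 1 kb (ENSG00000078399.19, chr7:27162438-27175180, minus strand). Only the RUNX1 list had a peak overlapping the gene itself. A RUNX1 peak at chr7:27164488-27165215 lay within the gene. Its summit was in the coding part of exon 1 of the canonical transcript, the transcript GENCODE marks as representative, and 527 bases downstream of that transcript's start. The summit also lay in intron 1 of another protein-coding gene on the minus strand, ENSG00000257184. The peak had a fold enrichment over background of 8.27, from 10 fragments at the summit (exact Poisson 95% interval 4.80 to 18.4). No PTBP1 peak overlapped it. The summit window held the motif ACCACA, beginning 32 bases to the left of the summit.

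The second HOXA9 place was downstream of the gene, between its 3′ end and HOXA7, and had a peak of each list. The PTBP1 peak spanned 946 bases at chr7:27160931-27161876 and came within 562 bases of HOXA9 and 2995 bases of HOXA7. Its fold enrichment was 11.6, from 19 fragments (95% interval 11.4 to 29.7), and it was the strongest of the 4 PTBP1 peaks in the clusters. The RUNX1 peak at chr7:27161181-27161590 lay wholly inside it, over 410 bases, with a fold enrichment of 7.52 from 9 fragments (4.12 to 17.1). The summits were 407 bases apart, and the RUNX1 summit was at the left edge of its own peak. The RUNX1 summit window held the motif ACCGCA, beginning 34 bases to the right of the summit, and the PTBP1 summit window held no RUNX motif.

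At HOXA5, a gene of the middle of the cluster, a PTBP1 peak covered the start of the gene (ENSG00000106004.5, chr7:27141052-27143681, minus strand). The peak spanned 313 bases at chr7:27143441-27143753, and its summit lay 20 bases downstream of the canonical start, in the untranslated part of exon 1. Its fold enrichment was 8.14 from 13 fragments (95% interval 6.92 to 22.2). No RUNX1 peak overlapped it, and the nearest RUNX1 peak was 17.5 kb from the HOXA5 start. The same peak placed HOXA3 among the genes with a PTBP1 peak, because the summit also lies in intron 1 of HOXA3, a gene of 46400 bases that spans HOXA4, HOXA5 and HOXA6 on the same strand. It lay 8830 bases from the canonical start of HOXA3. The antisense noncoding gene HOXA-AS3 also has this summit in its intron 1, and a peak on DNA cannot be assigned to a strand.

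The third PTBP1 peak of HOXA, at chr7:27188066-27188388, was within 1 kb of no HOX gene. Its summit lay in intron 2 of HOXA11-AS, an antisense noncoding gene, and 2880 bases upstream of the canonical start of HOXA11, which patterns limbs and the reproductive tract. The peak had a fold enrichment of 7.56 from 12 fragments (95% interval 6.20 to 21.0), just above the 11 fragments of the lowest PTBP1 peaks at the usual background. In HOXA the nearest gene outside the 1 kb limit was HOXA6, which lay 1643 bases from the HOXA5 peak.

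In HOXC, PTBP1 and RUNX1 peaks shared 1 place. The PTBP1 peak at chr12:54017888-54018378 had a fold enrichment of 10.5 from 17 fragments (95% interval 9.90 to 27.2). The RUNX1 peak at chr12:54017726-54018161 had a fold enrichment of 9.77 from 12 fragments (6.20 to 21.0), the highest fold of the 3 RUNX1 peaks. They overlapped by 274 bases, with summits 5 bases apart. HOXC4 (ENSG00000198353.8, chr12:54016931-54056030) and HOXC6 (ENSG00000197757.8, chr12:53990624-54030823), both on the plus strand, counted as having these peaks because the annotated genes reach across the place. The PTBP1 peak was 35457 bases upstream of the canonical start of HOXC4 and 10062 bases upstream of that of HOXC6, outside both canonical transcripts. It was closest to a start of the noncoding gene ENSG00000273046, whose 5′ end was 778 bases from the PTBP1 peak and 616 bases from the RUNX1 peak, and both summits were in its intron 1. Both summits also lay in intron 1 of the protein-coding gene ENSG00000273049.

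**Figure D1:**
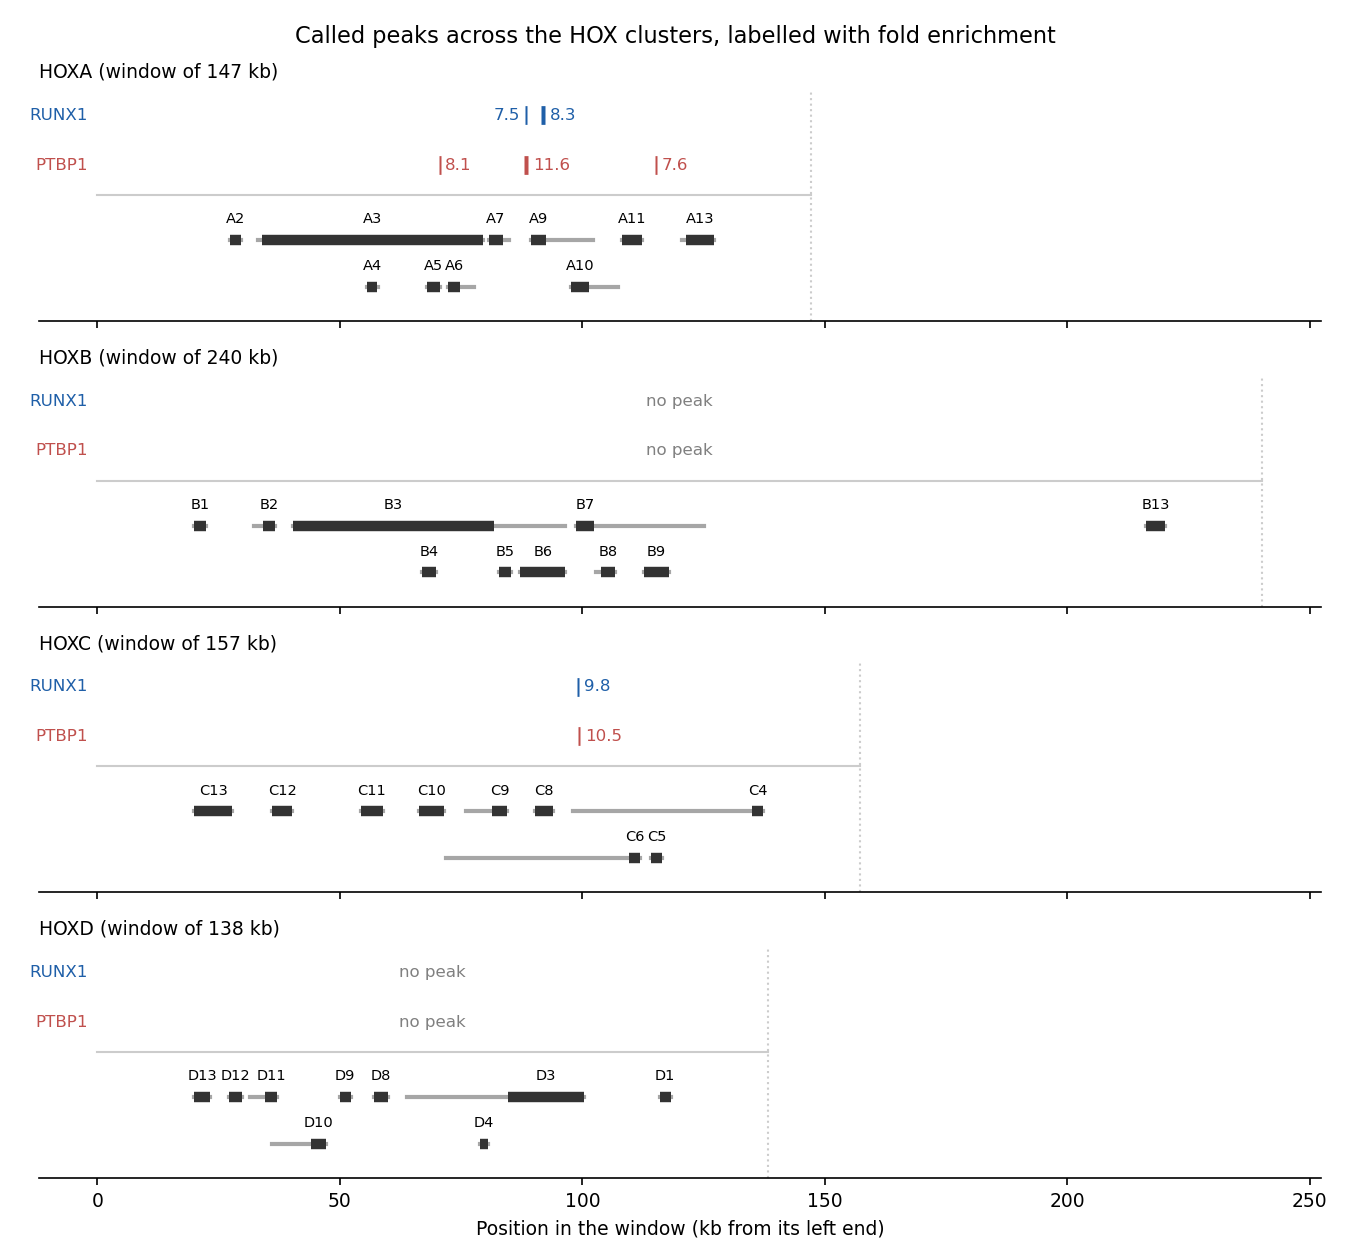
Called peaks in the 4 HOX windows, plotted in kb from the left end of each window (dotted line, right end); grey lines are annotated genes (not all are drawn), black bars their canonical transcripts, and red and blue marks PTBP1 and RUNX1 peaks with their fold enrichment. The 7 peaks sit in HOXA and HOXC, and HOXB and HOXD are empty.

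All 7 peaks were below the median fold enrichment of their own list. The median fold of the 9370 listed PTBP1 peaks was 12.2, and the 4 in the clusters ranged from 7.56 to 11.6. Between 7.66% and 48.5% of the PTBP1 list had the same fold or less. For the 7688 listed RUNX1 peaks the median fold was 15.0, and the 3 in the clusters ranged from 7.52 to 9.77, at or above 4.53% to 20.7% of that list. The 2 RUNX1 peaks at HOXA9 were the lower ones, with the peak downstream of the gene 1 fragment above the 8 fragments of the lowest RUNX1 peaks at the usual background. Folds were read within a list only, because the background was 0.72 fragments for most PTBP1 peaks and 0.33 for most RUNX1 peaks. At these backgrounds, sites with fewer fragments were not called, so a HOX gene without a peak was not shown to be free of either protein.

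**Figure D2:**
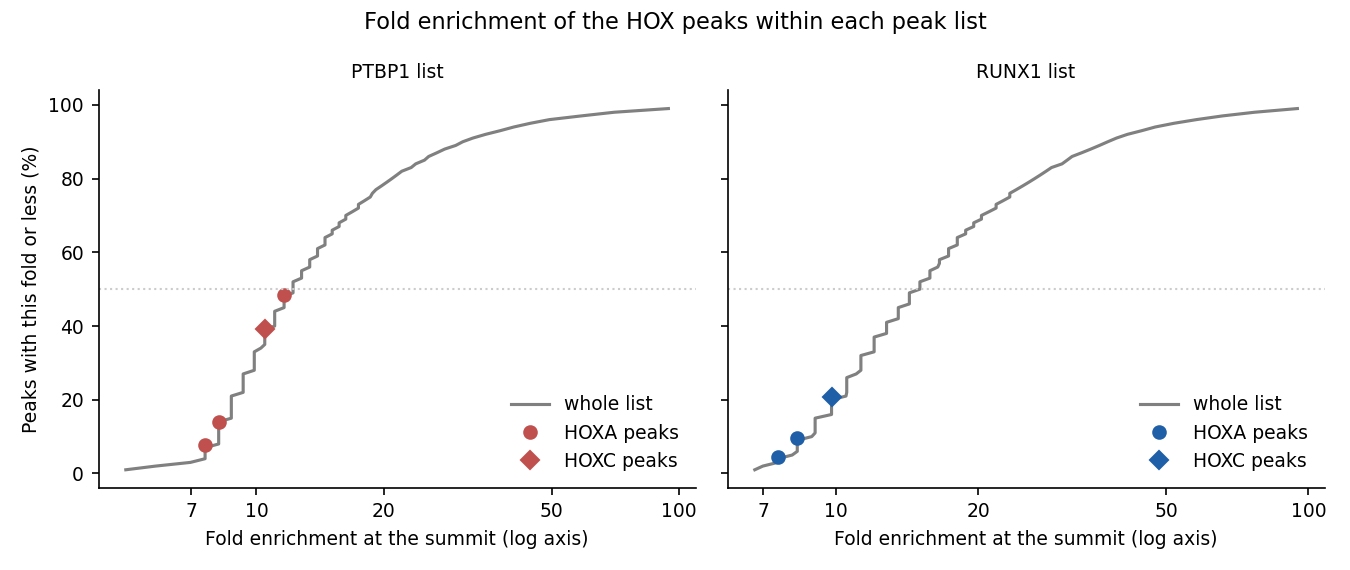
Cumulative share of peaks (%) against fold enrichment at the summit (log axis) for the PTBP1 list (left) and the RUNX1 list (right); the grey line is the whole list, circles are HOXA peaks and diamonds HOXC peaks. All 7 HOX peaks sit below the dotted line at the median.

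Over all 39 HOX genes, 5 had a PTBP1 peak within 1 kb of the gene, a share of 12.8% against 33.4% of all protein-coding genes. RUNX1 peaks were within 1 kb of 3 HOX genes, HOXA9, HOXC4 and HOXC6, or 7.69% against 30.1%. The same 3 genes had peaks of both lists, where 23.3% of all protein-coding genes did. All 3 shares were below those of protein-coding genes as a whole, a difference given as a description. HOX genes are short, with a median length of 4.22 kb against 27.5 kb for all protein-coding genes, and neighbouring HOX genes shared peaks. The part of gene length in these shares was not tested.

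Peaks were also counted at start sites alone. Within 1 kb of the 5′ end of the annotated gene, PTBP1 peaks were found at HOXA5 and HOXC4, 2 of 39 genes, against 26.4% of all protein-coding genes. RUNX1 peaks were found at HOXC4 alone, 1 of 39, against 21.3%, and HOXC4 was thus the 1 gene with both, against 17.3%. Within 1 kb of the canonical transcript start, a choice made after seeing the data, the genes were HOXA5 for PTBP1 (background 27.5%) and HOXA9 for RUNX1 (background 22.4%), and 0 of 39 had both (background 18.2%). HOXA9 and HOXC4 therefore changed places with the start chosen, since HOXA9 has an annotated transcript that begins upstream of its canonical one and HOXC4 has a transcript that begins within 1 kb of the HOXC place.

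By cluster, PTBP1 peaks were within 1 kb of 3 of 11 HOXA genes (27.3%) and of 2 of 28 genes in the other 3 clusters (7.14%). RUNX1 peaks were within 1 kb of 1 of 11 HOXA genes (9.09%) and of 2 of the same 28 genes (7.14%). In HOXC both counts were 2 of 9 (22.2%), from a single place. HOXB had 0 of 10 and HOXD 0 of 9 for either list. For PTBP1 the HOXA share was above that of the other 28 genes pooled, close to that of HOXC and below the 33.4% of all protein-coding genes. For RUNX1 it was below that of HOXC and below the 30.1% of all protein-coding genes. The 3 HOXA genes rested on 2 PTBP1 peaks, and no difference between clusters was tested.

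**Figure D3:**
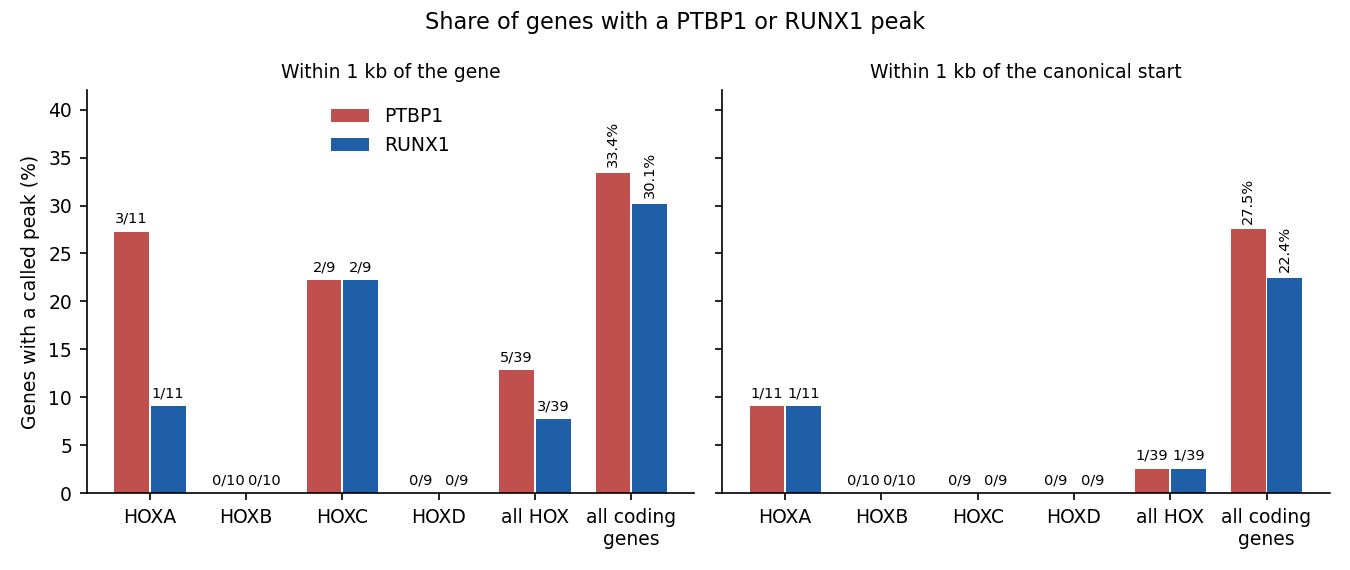
Share of genes (%) with a PTBP1 (red) or RUNX1 (blue) peak within 1 kb of the gene (left) or of its canonical transcript start (right), for each HOX cluster, all 39 HOX genes and all 20033 protein-coding genes, with the counts above the HOX bars. HOXB and HOXD are at 0 in both panels, and all HOX genes together are below all coding genes.

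Measured over the whole windows, PTBP1 peaks numbered 2.04 per 100 kb in HOXA and 0.636 in HOXC, against 0.303 over the genome, and covered 1.08% and 0.312% of the bases. RUNX1 peaks numbered 1.36 per 100 kb in HOXA and 0.636 in HOXC, against 0.249 over the genome, and covered 0.774% and 0.277%. To set the clusters beside sequence around other genes, windows of the same length were also centred on every protein-coding gene, and these windows overlap one another. Of windows as long as that of HOXA, 50% held a PTBP1 peak and 51% a RUNX1 peak. Their median was 0 PTBP1 peaks (quartiles 0 to 2) and 1 RUNX1 peak (0 to 2), against 3 and 2 in HOXA. At the length of the HOXC window the shares were 51.2% and 52.4%, and the median was 1 (0 to 2) for either list, as in HOXC. The empty HOXB window was the longest, at 240225 bases, and 58.6% of windows of that length held a PTBP1 peak and 61.3% a RUNX1 peak. For HOXD the shares were 48.9% and 49.6%. An empty window of these lengths was thus common around coding genes.

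The peak-free sequence around HOXB and HOXD reached beyond their windows, and its length was not compared with gaps between peaks elsewhere. The nearest peaks on the HOXB13 side of HOXB, of both lists, lay 102 kb from the cluster at CALCOCO2, and on the other side the nearest PTBP1 peak was 421 kb away in SNX11 and the nearest RUNX1 peak 427 kb away at CBX1. Between them, 723 kb held no PTBP1 peak and 729 kb no RUNX1 peak. Around HOXD the corresponding stretches were 2725 kb and 3188 kb, and on the HOXD1 side they ended at HNRNPA3, which had peaks of both lists 1021 kb and 1022 kb from the cluster. The even-skipped gene EVX2 next to HOXD13 and its relative EVX1 beyond HOXA13 had 0 peaks of either list within 1 kb. The shares over all protein-coding genes were 33.4% for PTBP1 and 30.1% for RUNX1. HOXC lay between PTBP1 peaks at ATP5MC2, 262 kb to the left, and SMUG1, 133 kb to the right. The nearest PTBP1 peaks outside HOXA were 228 kb away in SKAP2 and 3084 kb away at ZNRF2, and the nearest RUNX1 peaks were 694 kb away at LINC02981 and 463 kb away at HIBADH.

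Distances from each canonical start to the nearest peak followed the clusters. For PTBP1 the nearest of the HOXA genes was HOXA5, at 0 kb, and the HOXA median was 8.35 kb. For RUNX1 the nearest was HOXA9, at 0.322 kb, and the HOXA median was 17.5 kb. HOXA2, which patterns the hindbrain, was far from both kinds of peak, at 40.8 kb for PTBP1 and 58.5 kb for RUNX1. PTBP1 peaks were nearer than RUNX1 peaks to HOXA4 (12.7 against 30.4 kb), HOXA6 (4.02 against 13.4 kb), HOXA11 (2.83 against 20.02 kb) and HOXA13 (11.7 against 34.9 kb), and RUNX1 peaks were nearer to HOXA10 (9.11 against 12.4 kb). HOXA7 was 4.26 kb from a PTBP1 peak and 4.51 kb from a RUNX1 peak.

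In HOXC the distances of the 2 lists were nearly equal, since both were measured to the same place. The PTBP1 distances ran from 8.90 kb at HOXC8 to 79.1 kb at HOXC13, the gene used in hair and nails, with a median of 32.7 kb, and the RUNX1 median was 32.6 kb. HOXB genes were 102 kb (HOXB13) to 300 kb (HOXB1) from a peak of either list, with a median of 231 kb for PTBP1 and 232 kb for RUNX1. HOXD genes were 1024 kb (HOXD1) to 1120 kb (HOXD13) away in both lists. All protein-coding genes had a median of 64.5 kb for PTBP1 and 62.8 kb for RUNX1, so every HOXA gene was below the PTBP1 median and every HOXB and HOXD gene above both medians. Genes of a cluster share their nearest peak and are not independent values.

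**Figure D4:**
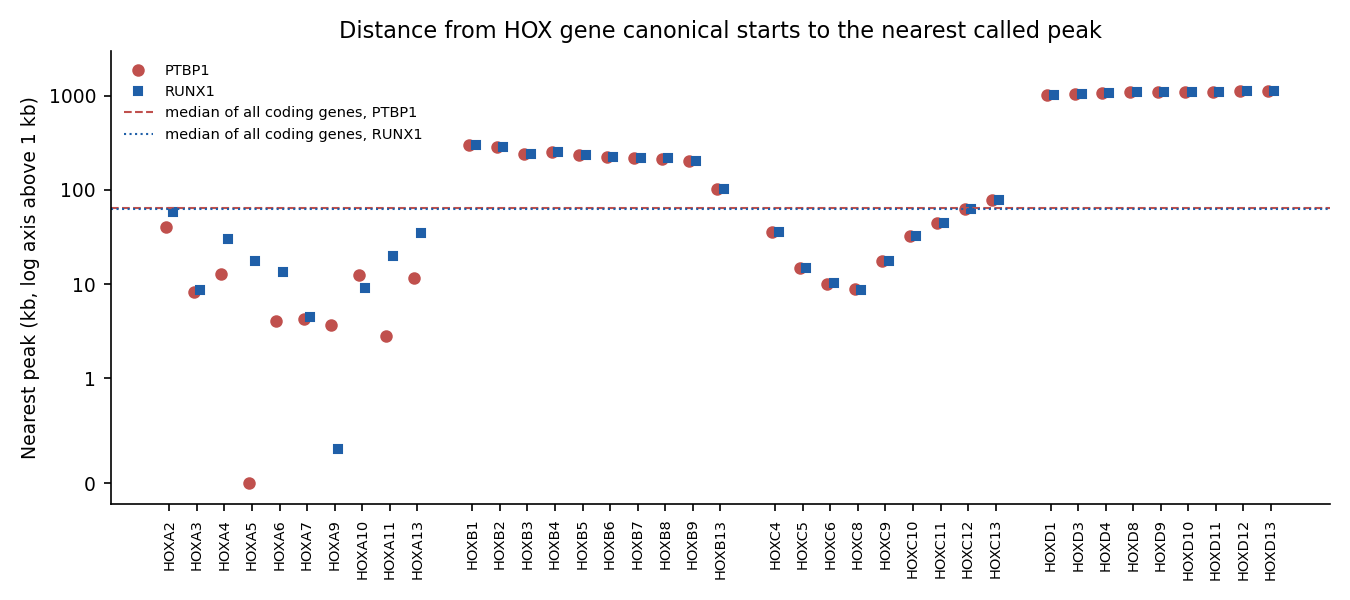
Distance in kb from the canonical start of each HOX gene shown to the nearest PTBP1 (circles) and RUNX1 (squares) peak, on an axis that is logarithmic above 1 kb; horizontal lines are the medians of all protein-coding genes, 64.5 and 62.8 kb. HOXA genes lie lowest, HOXD genes near 1000 kb.

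Paralog groups, the sets of genes with the same number in different clusters, numbered 13, and in 8 of them no member had a peak of either list within 1 kb. In the other 5 groups, those of HOXA3, HOXC4, HOXA5, HOXC6 and HOXA9, a single member had peaks. These groups are not independent, since HOXA3 and HOXA5 shared the same PTBP1 peak. HOXC4 and HOXC6 shared the HOXC place, which is outside both canonical transcripts. No share for other groups of genes was set beside these counts. HOXA9 had peaks of both lists within 1 kb, whereas HOXB9, HOXC9 and HOXD9 had none. HOXC4 and HOXC6 had both, whereas HOXA4, HOXB4, HOXD4, HOXA6 and HOXB6 had none. HOXA3 and HOXA5 had a PTBP1 peak, and their paralogs HOXB3, HOXD3, HOXB5 and HOXC5 had none.

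The noncoding genes of the windows, taken as all annotated genes that are not protein-coding, numbered 65, of which 27 were in HOXA, 16 in HOXB, 14 in HOXC and 8 in HOXD. PTBP1 peaks were within 1 kb of 8 of them (12.3%), 7 in HOXA and 1 in HOXC, against 6.51% of all 42630 noncoding genes. RUNX1 peaks were within 1 kb of 1 (1.54%), ENSG00000273046 in HOXC, against 5.88%. All 7 in HOXA were reached by the peaks at HOXA5 and upstream of HOXA11. The 8 microRNA genes of the windows, and the long noncoding genes HOTAIRM1, HOTTIP and HOTAIR, which act in the regulation of HOX genes, had 0 peaks within 1 kb. Of all microRNA genes, 9.53% had a PTBP1 peak and 5.43% a RUNX1 peak.

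RUNX motifs were present throughout the clusters, with 103 matches in HOXA, 186 in HOXB, 97 in HOXC and 107 in HOXD. Their density of 0.617 to 0.774 per kb was below the 0.852 per kb of the genome, while the windows had a GC content of 49.0% to 50.8% against 40.9%. RUNX1 peaks covered 2 of the 103 matches in HOXA and 0 of the matches in each of the other clusters. PTBP1 peaks likewise covered 2 in HOXA and 0 in each of the others, including the ACCGCA match downstream of HOXA9, which lies in peaks of both lists. Within 50 bases of the summit, 2 of 3 RUNX1 summits in the clusters held a motif, against 24.2% of the whole list, and 0 of 4 PTBP1 summits did, against 8.79%. The HOXC window printed above held no RUNX motif around either summit. Of RefSeq promoters on hg38, each from 250 bases before to 50 after a start, 27 belonged to 20 HOX genes and 5 of them (18.5%) held a motif, against 19.6% of all 35116 promoters.

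An unbroken run of 12 or more pyrimidines, sought on both strands and the kind of sequence PTBP1 binds in RNA, was present in 2 of the 4 PTBP1 summit windows, downstream of HOXA9 and in HOXC, against 14.7% of the PTBP1 list. It was present in 0 of the 3 RUNX1 windows, against 17.0% of the RUNX1 list. In HOXC the run lies at the left edge of the PTBP1 window. The RUNX1 window, centred 5 bases to the right, cuts the same run short, so the 2 lists do not differ in sequence at that place. Such a run cannot contain either RUNX hexamer, since those mix purines and pyrimidines. GC content of the PTBP1 windows went from 40.6% at HOXA5 to 74.3% in HOXC (list median 65.3%) and that of the RUNX1 windows from 53.5% in HOXA9 to 74.3% in HOXC (list median 62.4%). A motif match describes sequence and does not show binding.

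The TALE homeodomain proteins bind DNA together with HOX proteins, and their 9 genes lie outside the clusters. PTBP1 peaks were within 1 kb of 5 of these genes, where 33.4% of all protein-coding genes had one. Peaks of both lists were within 1 kb of 3, PBX3, PKNOX1 and PKNOX2, against 23.3% of all protein-coding genes. PKNOX1, which encodes the PREP1 cofactor, had a PTBP1 peak at its start with a fold of 99.4 from 170 fragments, at or above 99.1% of the list, and an overlapping RUNX1 peak with a fold of 45.1 from 59 fragments. PBX3, a partner of HOXA9 in leukemia, had overlapping peaks upstream of its start, with a PTBP1 fold of 25.6 and a RUNX1 fold of 27.1. PBX2 and PBX4 had PTBP1 peaks near their starts, with folds of 12.2 and 15.7, and PBX2 had a further PTBP1 peak beyond its 3′ end with a fold of 11.6. PKNOX2 had overlapping peaks in intron 2, with a PTBP1 fold of 13.4 and a RUNX1 fold of 21.1, and a RUNX1 peak in intron 1 with a fold of 25.6.

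MEIS1, MEIS2 and MEIS3 had no peak of either list. The CDX genes, which act upstream of HOX genes, and the ParaHox genes had 0 peaks within 1 kb among 6 genes. Of all protein-coding genes, 33.4% had a PTBP1 peak within 1 kb and 30.1% a RUNX1 peak. Lists this short cannot be set apart from those shares. The PTBP1 peaks at PKNOX1, PBX3, PBX4 and PKNOX2 each had a higher fold than any PTBP1 peak in the HOX clusters, and so did the RUNX1 peaks at PKNOX1, PBX3 and PKNOX2 relative to the RUNX1 peaks of the clusters.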

How the data were processed

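Alignment by the authors was to hg38 with Bowtie2, followed by a mapping quality filter above 30, removal of duplicates and MACS3 peak calling with a q-value threshold of 1e-07. The 2 deposited lists name a target but neither assay nor replicate, and CUT&Tag was assumed, for which the study describes peak calling. Pooling of replicates is not given in the sources used here. Fold enrichment, as deposited, is the ratio of fragment pileup at the summit plus 1 to background plus 1. The −log10 p-value and −log10 q-value of that pileup are deposited too, and the deposited score, 10 times the −log10 q-value as a whole number, was not used further. Fold and −log10 p-value were solved together for whole fragments, with exact Poisson 95% intervals.

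Genes, canonical transcripts and exons came from GENCODE version 44, and coordinates are 1-based. A gene had a peak when any base of a peak came within 1 kb of the gene. Every HOX gene with such a peak and every peak in a window was named, as were TALE, CDX, ParaHox and EVX genes. Members and lists were chosen with earlier results of these data known. No test was made, since each target had 1 list and genes of a cluster share peaks. Alternatives covered distance, gene model, significance, overlap, window and motif. Library depths were not used. Procedures were tested on simulated data. Python 3.11.15 was run with scipy 1.17.1, numpy 2.4.6, matplotlib 3.10.9 and pandas 2.3.3. Values of some genes are not reported here.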

Additional observations from a re-analysis of the deposited data

How the results depend on the processing

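Of 63 alternatives over 15 counts, 44 kept the count within 1.5 times its value and 19 did not. Counting peaks within 5 kb of a gene raised the HOX genes with a PTBP1 peak from 5 to 8 and those with a RUNX1 peak from 3 to 5. Requiring a peak to overlap the gene gave 4 for PTBP1, 3 for RUNX1 and 2 for both, since HOXA9 then had a RUNX1 peak only. Counting within 1 kb of the 5′ end of the gene gave 2 for PTBP1, 1 for RUNX1 and 1 for both. The canonical transcript in place of the whole gene gave 3, 1 and 1, and its start gave 1, 1 and 0. Those 2 settings were chosen after seeing the data, and HOXC4 and HOXC6 dropped out under each of them. At a −log10 q-value of at least 10 the PTBP1 peaks in the HOXA window went from 3 to 2, since the peak upstream of HOXA11 fell below it. The RUNX1 peaks there went from 2 to 1, since the RUNX1 peak downstream of HOXA9 fell below it too. The overlap of PTBP1 and RUNX1 peaks in HOXA went from 1 to 0 in both lists. That overlap was also 0 when summits had to be at most 200 bases apart, and 0 for PTBP1 when 50% of its peak had to be covered. A window of 100 bases either side gave 1 PTBP1 summit with a RUNX motif in place of 0, and TGTGGT alone gave 1 RUNX1 summit in place of 2.

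HOXB and HOXD held 0 peaks of either list under each alternative tried for them, but none of these could have changed the count. Dropping the flank, a stricter q-value and summits inside the window can only remove peaks. The 50 kb flank stopped short of the nearest peaks, 102 kb from HOXB and 1021 kb from HOXD. These alternatives are among the 44 that kept the count. No paired analysis was possible because each target had a single list with no values per replicate. The peaks rest on 9 to 19 fragments each, so whether they recur between libraries was not tested, and weaker sites could not be called.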
